A study of Mus musculus with 8 samples.

Results

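Transcripts of 10 genes that encode lipid droplet proteins and regulators of lipolysis were followed in the livers of single mice. The members were Plin2, Plin4, Plin5, Cidea, Cideb, Cidec, G0s2, Pnpla2, Pnpla3 and Hilpda, which were matched by symbol among the 55487 genes listed in the count data. Livers of 4 control mice and 4 Mc1r LKO mice were sequenced, each liver as its own library, after 12 weeks on a cholesterol-rich Western diet. All mice were males, were 8 weeks old when the diet began and were fasted for 4 h before sacrifice. Control mice were Mc1r fl/fl, with both alleles of the melanocortin 1 receptor gene floxed and no Cre. Mc1r LKO mice carried the same floxed alleles together with the Alb Cre transgene in the Cre/+ state. The albumin promoter drives Cre in hepatocytes, so other liver cells keep the receptor gene. Because the control mice had no Cre, an effect of the transgene cannot be told apart from loss of Mc1r. The comparison addressed whether hepatocyte loss of Mc1r changes droplet and lipolysis transcripts in fatty liver.

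Hepatocytes store triglyceride in lipid droplets, which are neutral fat cores enclosed by a phospholipid monolayer and coated by proteins. Perilipins (the Plin genes) cover the droplet and control the access of lipases, and proteins of the CIDE family promote the fusion and growth of droplets. Adipose triglyceride lipase, encoded by Pnpla2, starts the breakdown of stored triglyceride, with ABHD5 as its activator and G0S2 and HILPDA as its inhibitors. In steatosis, droplet coat proteins accumulate together with the fat, and several of the genes are targets of the nuclear receptors PPARα and PPARγ.

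Total counts ranged from 10773151 to 24763375 per mouse, and 13400 genes were kept for testing. Mc1r itself had 0 counts in all 8 mice, where a count of 0 allows up to 0.121 to 0.278 CPM, the counts scaled by library size,, so its deletion could not be checked at this depth. The first principal component held 37.6% of the variance. It set apart Mc1r LKO mouse 182, at 59.3, and control mouse 181, at 27.8, from the other mice, which lay between -28.2 and -7.03. Values without mouse 181, mouse 182 or both are therefore also given for several results. On the second component, with 16.9% of the variance, control mouse 159 lay at -40.5 and the others between -8.4 and 22. Mouse 159 also had the lowest total count. In the edgeR quasi-likelihood test, 0% of the 13400 genes passed an adjusted p of 0.05, while 901 had an unadjusted p under 0.05. DESeq2 called 17 genes, the edgeR likelihood ratio test called 8 and limma-voom called 0 at the same adjusted threshold. A second, looser threshold asked for an unadjusted p under 0.05 and a log2 change of 0.25 or more in either direction, which 5.31% of all genes tested passed, 2.64% as higher and 2.66% as lower in Mc1r LKO mice. Under library size scaling alone, 25.3% of the calls at this threshold were higher in Mc1r LKO mice, against 49.8% under TMM normalization (trimmed mean of M-values), and the median log2 fold change of all genes was -0.06 against -0.01.

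None of the droplet and lipolysis genes passed the adjusted threshold between the genotypes, in edgeR, DESeq2 or limma-voom. All 10 passed the filter on low counts, 4 had a higher and 6 a lower mean in Mc1r LKO mice, and their median log2 fold change was -0.09. Plin5, a perilipin of oxidative tissues, was the 1 member of 10 past the unadjusted threshold, at a 1.19-fold higher level in Mc1r LKO mice. With a background of 5.31%, 1 call among 10 genes does not set the members apart. Cidea had the largest difference, a mean of 14.3 CPM in Mc1r LKO mice against 47.5 CPM in control mice, but its 95% confidence interval included no change. The values of the genotypes overlapped for all 10 genes, whereas 4.16% of all genes tested had groups that did not overlap. After mice 181 and 182 were left out, a choice made after seeing the data, Plin5, Cidea and Cidec passed the unadjusted threshold and still none passed the adjusted one. The lowest adjusted p of any member was 0.734 in the quasi-likelihood test, and with all mice the lowest under any alternative was 0.296, for Cidea with 1 surrogate variable. RNA came from whole liver, so fewer cells of a type and less RNA per cell cannot be told apart.

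**Figure D1:**
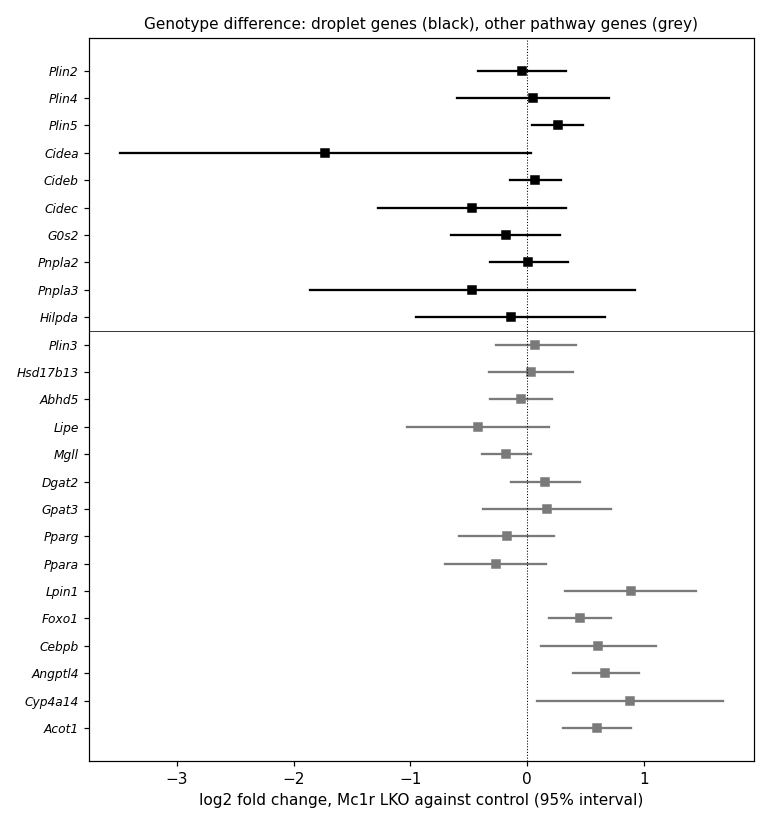
Log2 fold change of each droplet and lipolysis gene (black) and of other pathway genes (grey), Mc1r LKO minus control. Bars are 95% confidence intervals from the edgeR quasi-likelihood fit of 8 livers. Among the genes in black, the interval of Plin5, 0.04 to 0.48, is the only one that does not include 0. That of Cidea, -3.49 to 0.03, is the widest. Among the genes in grey, the intervals of Lpin1, Foxo1, Cebpb, Angptl4, Cyp4a14 and Acot1 lie wholly above 0.

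Levels of different genes were compared as TPM, the counts divided by exonic length and scaled to the same total in each mouse. Plin2, the general perilipin of hepatocyte droplets, was the most abundant member at 741 ± 156 TPM (SD, n = 8 mice). Cideb, the CIDE protein of normal liver that takes part in lipoprotein assembly, followed at 576 ± 41.5 TPM. The lipase inhibitor G0s2 had 309 ± 97.4 TPM and Cidec, which enlarges droplets and is abundant in fat cells, 165 ± 63.9 TPM. Plin5 had 82.2 ± 10.6 TPM and Pnpla2 60.5 ± 10.5 TPM. Cidea averaged 67.0 TPM but ranged from 0.793 to 197 TPM, and Pnpla3 averaged 40.2 ± 27.5 TPM. Plin4 and Hilpda were lowest, at 19.0 ± 5.95 and 10.6 ± 5.05 TPM. Of the 9 neighbours in this order, which was set by mean log2 TPM, 5 differed in the exact two-sided sign-flip permutation test over the 8 mice. Plin2 exceeded Cideb, Cideb exceeded G0s2, G0s2 exceeded Cidec and Plin5 exceeded Pnpla2 in 8 of 8 mice (adjusted exact p = 0.0176 for each), and Plin4 exceeded Hilpda in 7 of 8 (adjusted exact p = 0.0422). The smallest raw p that this test can give is 0.00781. The test measures only how alike the mice are, and an error in the length of a gene would repeat in all 8. Plin5 and Pnpla2 had mean CPM of 65.3 and 75.8 in control and 78.1 and 76.4 in Mc1r LKO mice. Their order in TPM thus rests on exonic lengths of 2087 and 3020 bases. Cidec was higher than Plin5 in 7 of 8 mice, by 0.86 on the log2 scale, with an adjusted exact p of 0.0586. The order of Pnpla2, Cidea, Pnpla3 and Plin4 was not resolved, with adjusted exact p values of 0.466, 0.883 and 0.151 for the successive neighbours.

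**Figure D2:**
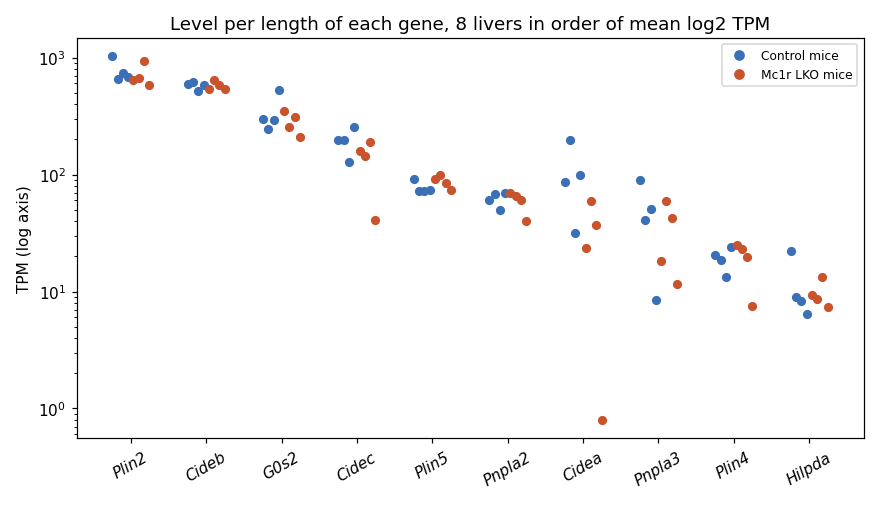
Level of each droplet and lipolysis gene in TPM on a log axis, with the 8 livers as points coloured by genotype and genes ordered by mean log2 TPM. Plin2 and Cideb form the top of the order. Points of Cideb show little spread, those of Plin2 reach from 586 to 1029 TPM and those of Cidea from 0.793 to 197 TPM.

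Among the perilipins, Plin2 (ENSMUSG00000028494, chromosome 4 of GRCm38, 86648386 to 86670060, minus strand) is a standard marker of fat-laden hepatocytes. Plin2 measured 1410.3, 984, 1086 and 923 CPM in control mice 154, 159, 181 and 193. In Mc1r LKO mice 141, 156, 157 and 182 it measured 941, 982, 1397 and 953 CPM. A single mouse of each genotype, 154 and 157, stood high and the other 6 lay between 923 and 1086 CPM. The group means were 1101 ± 217 CPM in control mice and 1068 ± 220.1 CPM in Mc1r LKO mice (SD, n = 4 each). The log2 fold change was -0.04 (SE 0.17, 95% CI -0.42 to 0.33), with an adjusted p of 0.979. Its sign was not fixed, since it turned positive when mouse 154 (0.10), mouse 141 (0.02) or mouse 182 (0.01) was left out.

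Plin4 (ENSMUSG00000002831) and Plin5 (ENSMUSG00000011305) are neighbours on the minus strand of chromosome 17, at 56100591 to 56109803 and 56111601 to 56117596, with 1797 bases between them. Plin5 tethers droplets to mitochondria and binds both Pnpla2 and its activator. It measured 74.4, 65.5, 62.5 and 58.8 CPM in control mice 154, 159, 181 and 193. Values in Mc1r LKO mice 141, 156, 157 and 182 were 79.8, 86.0, 75.3 and 71.2 CPM. Every Mc1r LKO mouse was above the controls except mouse 182, which lay below control mouse 154. The means were 65.3 ± 6.66 and 78.1 ± 6.31 CPM (SD, n = 4 each). The difference was 0.26 on the log2 scale (SE 0.10, 95% CI 0.04 to 0.48, adjusted p = 0.734), and the exact two-sided permutation p of the difference in mean CPM was 0.0571. It fell short of the unadjusted threshold without control mouse 181 (0.24), control mouse 193 (0.22) or Mc1r LKO mouse 156 (0.21), and under library size scaling alone (0.22), and the adjusted p lay between 0.328 and 0.985 over the alternatives with all mice or 1 mouse left out.

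Plin4, a long repeat-containing perilipin best known from adipose tissue and muscle, did not follow its neighbour. Control mice 154, 159, 181 and 193 had 50.7, 50.9, 35 and 59.2 CPM of Plin4. Mc1r LKO mice 141, 156, 157 and 182 had 66.4, 61.0, 53.5 and 22.2 CPM. Mice 181 and 182 were the lowest of their groups, and the other 3 Mc1r LKO mice all exceeded control mice 154 and 159. The means were 49.0 ± 10.1 and 50.8 ± 19.8 CPM, and the log2 fold change of 0.05 (SE 0.29, 95% CI -0.60 to 0.70, adjusted p = 0.987) moved from -0.10 with mouse 141 left out to 0.31 with mouse 182 left out.

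**Figure D3:**
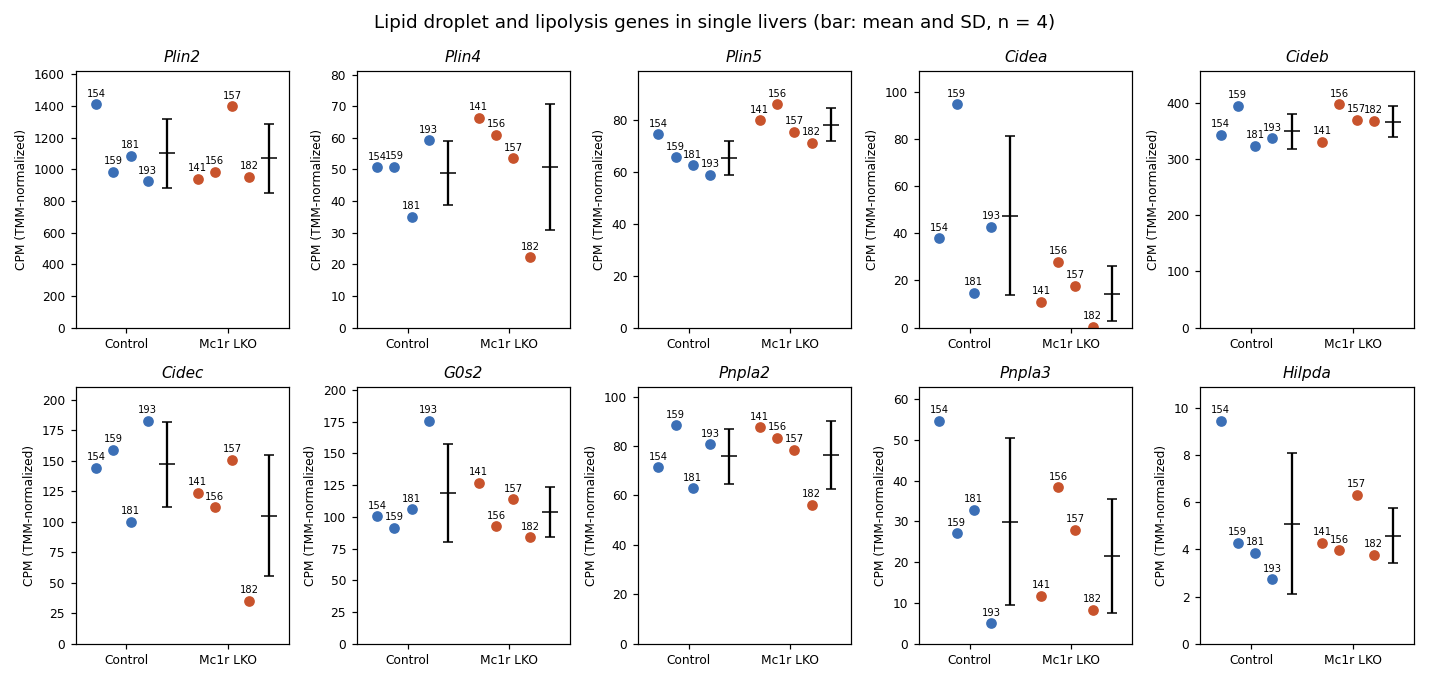
CPM with TMM normalization of each droplet and lipolysis gene in single livers, controls in blue and Mc1r LKO in red, each point labelled with its mouse and the bar giving the mean and SD of 4 mice. Plin5 is higher in most Mc1r LKO mice, Plin2 has a single high mouse in each genotype, and mouse 182 is near 0 for Cidea and lowest for Cidec and Plin4.

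Promoter windows of RefSeq (GRCm38.p6) span 250 bases before to 50 bases after a transcription start, and 9 of the 10 genes had at least 1 of the 12 windows. Those of Plin5, Plin2 and Cidec are shown 5′ to 3′, the first because it passed the unadjusted threshold and the others, chosen after their values were seen, as the most abundant perilipin and as a droplet-growth gene that varied 5.23-fold among mice. Capitals mark AGGTCA, the half-site of nuclear receptors such as the PPARs, or CACGTG, the E-box, on either strand, where AGGTCA on the other strand reads TGACCT.
Plin5 (chr17:56117499-56117798, minus strand): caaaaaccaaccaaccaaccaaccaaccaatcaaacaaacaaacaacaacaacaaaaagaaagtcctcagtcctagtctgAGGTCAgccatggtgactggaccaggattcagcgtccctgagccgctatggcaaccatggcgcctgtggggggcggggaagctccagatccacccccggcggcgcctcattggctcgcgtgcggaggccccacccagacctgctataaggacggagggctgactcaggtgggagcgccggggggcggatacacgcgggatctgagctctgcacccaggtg
Plin2 (chr4:86670010-86670309, minus strand): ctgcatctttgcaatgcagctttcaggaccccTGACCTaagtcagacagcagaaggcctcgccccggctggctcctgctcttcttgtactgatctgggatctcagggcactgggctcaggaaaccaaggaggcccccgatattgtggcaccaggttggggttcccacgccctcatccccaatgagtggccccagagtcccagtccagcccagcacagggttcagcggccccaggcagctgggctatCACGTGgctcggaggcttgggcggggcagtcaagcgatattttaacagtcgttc
Cidec (chr6:113435711-113436010, minus strand): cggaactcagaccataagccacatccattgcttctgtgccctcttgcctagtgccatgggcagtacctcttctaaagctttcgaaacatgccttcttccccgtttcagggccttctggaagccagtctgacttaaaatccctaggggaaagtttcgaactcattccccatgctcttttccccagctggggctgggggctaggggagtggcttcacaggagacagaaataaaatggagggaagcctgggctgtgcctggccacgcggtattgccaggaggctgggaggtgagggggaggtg

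The AGGTCA half-site occurred in 3 of the 12 windows, those of Plin2 and both of Plin5, against 16.3% of all 32851 mouse windows. CACGTG occurred in the Plin2 window and in 7.15% of all windows. TATAAA, the TATA box, occurred in the Cideb window and in 13.6% of all windows. An exact copy of the PPAR element, AGGTCA repeated in direct orientation with 1 base between, was in 0 of the 12 windows and in 0.0396% of all. The glucocorticoid element AGAACA followed after 3 bases by TGTTCT was in 0 of the 12 and in 0.00913% of all. Both strands were searched, and AGGTCA counts include any within the repeat. Exact copies of the PPAR and glucocorticoid elements are so rare that 0 of 12 windows tells nothing about these genes. Sites that depart from these letters were not searched, so the windows may still hold such elements. A match is only a run of letters, and a missing match says nothing of binding there or elsewhere.

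The CIDE genes spanned the extremes of stability among the members. Cidea (ENSMUSG00000024526, chromosome 18, 67343604 to 67367785, plus strand) is low in lean liver and is known to rise with steatosis. Control mice 154, 159, 181 and 193 had 37.9, 94.7, 14.8 and 42.6 CPM. Mc1r LKO mice 141, 156, 157 and 182 had 10.9, 28.0, 17.7 and 0.409 CPM. The groups overlapped at control mouse 181, which lay below Mc1r LKO mice 156 and 157, and mouse 182 was near 0 with 8 counts. The highest and lowest mice differed 232-fold. The means were 47.5 ± 33.7 and 14.3 ± 11.6 CPM (SD, n = 4 each). The log2 fold change was -1.73 (SE 0.79, 95% CI -3.49 to 0.03, adjusted p = 0.745), and the exact two-sided permutation p of the difference in mean CPM was 0.0857. It passed the unadjusted threshold without control mouse 181 (-2.03), Mc1r LKO mouse 156 (-2.27) or Mc1r LKO mouse 182 (-1.31), and without mice 181 and 182 together (-1.61). Without control mouse 159, the highest liver, it was -1.16, the smallest difference with 1 mouse left out, and did not pass. With all 8 mice it passed in 4 of 9 alternatives, namely the edgeR likelihood ratio test (-1.74), limma-voom (-2.48), a filter of at least 1 count in any mouse (-1.72) and 1 surrogate variable (-1.50). The adjusted p lay between 0.296 and 0.985 over all the alternatives.

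Cidec (ENSMUSG00000030278, chromosome 6, 113424634 to 113435760, minus strand) had 144, 159, 100 and 183 CPM in control mice 154, 159, 181 and 193. Mc1r LKO mice 141, 156, 157 and 182 had 124, 112, 151 and 35.1 CPM. Apart from mouse 182, which lay 4.09-fold below the median of the other 7 mice, the Mc1r LKO values lay inside the control range. The means of 147 ± 35.1 and 105 ± 49.8 CPM gave a log2 fold change of -0.47 (SE 0.36, 95% CI -1.28 to 0.33, adjusted p = 0.862). It was -0.18 without mouse 182, and -0.32 without mice 181 and 182 (past the unadjusted threshold, adjusted p = 0.668). With all 8 mice it passed the unadjusted threshold in 1 of 10 alternatives, that with 1 surrogate variable (-0.35, adjusted p = 0.455).

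Cideb (ENSMUSG00000022219, chromosome 14, 55754050 to 55758458, minus strand) was the steadiest member. It measured 344, 395, 324 and 337 CPM in control mice 154, 159, 181 and 193 and 331, 398, 370.4 and 368 CPM in Mc1r LKO mice 141, 156, 157 and 182. All 8 livers lay within 1.23-fold of each other, mouse 182 included. The means were 349.7 ± 31.0 and 367 ± 27.5 CPM, with a log2 fold change of 0.07 (95% CI -0.15 to 0.29, adjusted p = 0.926).

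The lipase Pnpla2 (ENSMUSG00000025509, chromosome 7, 141455198 to 141460743, plus strand) had nearly equal means in the genotypes. Control mice 154, 159, 181 and 193 had 71.4, 88.4, 62.9 and 80.6 CPM, and Mc1r LKO mice 141, 156, 157 and 182 had 87.6, 83.4, 78.4 and 56.3 CPM. Mice 181 and 182 were again the lowest of their groups. The means of 75.8 ± 11.1 and 76.4 ± 13.9 CPM gave a log2 fold change of 0.01 (SE 0.15, 95% CI -0.32 to 0.35, adjusted p = 0.993). The sign turned under library size scaling alone (-0.02) and without control mouse 154 (-0.01), control mouse 181 (-0.07), Mc1r LKO mouse 141 (-0.05) or Mc1r LKO mouse 156 (-0.03).

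Its relative Pnpla3 (ENSMUSG00000041653, chromosome 15, 84167837 to 84187236, plus strand) is a lipid droplet protein induced by carbohydrate feeding. In control mice 154, 159, 181 and 193 it measured 54.7, 27.1, 32.9 and 5.06 CPM. In Mc1r LKO mice 141, 156, 157 and 182 it measured 11.8, 38.3, 27.9 and 8.28 CPM. The lowest liver was control mouse 193, 5.51-fold below the median of the other 7 mice with 124 counts, and both genotypes held low and high livers. The means were 29.9 ± 20.4 and 21.5 ± 14.0 CPM. The log2 fold change was -0.47 (SE 0.62, 95% CI -1.86 to 0.92, adjusted p = 0.921) and 0.00 without control mouse 154. It was -0.19 without Mc1r LKO mouse 182 and -0.14 without mice 181 and 182. Of its exonic length, 6.78% is shared with Gm49513, so reads there could be assigned to either gene.

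G0s2 (ENSMUSG00000009633, chromosome 1, 193272161 to 193273217, minus strand), the inhibitor of Pnpla2, had 100.5, 91.3, 106 and 176 CPM in control mice 154, 159, 181 and 193. Mc1r LKO mice 141, 156, 157 and 182 had 127, 92.7, 114 and 84.0 CPM. Mouse 193 stood above all others, and without it the log2 fold change turned from -0.18 (SE 0.21, 95% CI -0.65 to 0.28, adjusted p = 0.911) to 0.08. The means were 119 ± 38.8 and 104 ± 19.6 CPM.

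Hilpda (ENSMUSG00000043421, chromosome 6, 29272488 to 29275446, plus strand), a second inhibitor of the lipase and a hypoxia-induced gene, was the least abundant member. It measured 9.46, 4.28, 3.86 and 2.73 CPM in control mice 154, 159, 181 and 193 and 4.29, 3.96, 6.30 and 3.78 CPM in Mc1r LKO mice 141, 156, 157 and 182. Mice 154 and 157, which led for Plin2, also led for Hilpda. The means were 5.08 ± 2.99 and 4.58 ± 1.16 CPM. The log2 fold change was -0.14 (SE 0.36, 95% CI -0.95 to 0.67, adjusted p = 0.965), 0.07 under limma-voom and 0.36 without mouse 154.

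Ratios of members within a mouse need no scaling between libraries, and 4 were compared. G0s2 was 5.28 times Pnpla2 in control mice and 4.74 times in Mc1r LKO mice (geometric means of TPM ratios), a log2 difference of -0.16 with an exact two-sided permutation p of 0.514 and an adjusted p of 0.686. Single mice ranged from 3.58 to 7.58 in the controls and from 3.85 to 5.17 in Mc1r LKO mice, and the difference turned to 0.02 without mouse 193. The Hilpda to Pnpla2 ratio was 0.165 and 0.163, differing by -0.02 on the log2 scale (exact permutation p = 0.971), and by 0.36 without mouse 154, 0.07 without mouse 141 and 0.09 without mouse 156. Cidec to Plin2 was 0.249 and 0.166 (log2 difference -0.58, exact permutation p = 0.343), with 0.0697 in mouse 182 as the lowest, and the difference was -0.17 without that mouse. Plin5 to Plin2 was 0.101 in control mice and 0.124 in Mc1r LKO mice, a log2 difference of 0.30 (exact permutation p = 0.143, adjusted p = 0.571). The 4 control livers held 0.0888, 0.112, 0.0969 and 0.107 in the order of mice 154, 159, 181 and 193, and the Mc1r LKO livers held 0.143, 0.147, 0.0907 and 0.126 in the order 141, 156, 157 and 182. Mouse 157 was the 1 Mc1r LKO mouse inside the control range, so leaving it out fixes the separation of the groups (0.46, exact permutation p = 0.0286, the smallest that this design allows). With each of the other 7 mice left out, the difference was 0.22 to 0.35 with an exact permutation p of 0.143 to 0.286.

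The lowest values of the members fell mostly in mice 182 and 193. Such ranks do not weigh single mice against genotype, and the share of all genes lowest in each mouse is not given here. Mouse 182 was the lowest of 8 livers for 5 of 10 genes, namely Plin4, Cidea, Cidec, G0s2 and Pnpla2. For Cidea it lay 68.5-fold below the median of the other 7 mice, for Cidec 4.09-fold, for Pnpla3 3.37-fold and for Plin4 2.41-fold. Its Plin2 (953 CPM), Plin5 (71.2 CPM) and Cideb (368 CPM) were close to the medians of the others, at 984, 74.4 and 344 CPM. Control mouse 193 was lowest for 4 genes, Plin2, Plin5, Pnpla3 and Hilpda, and highest for Cidec and G0s2. Control mouse 154 was highest for Plin2, Pnpla3 and Hilpda, at 2.39 times the median of the others for Hilpda. Control mouse 159 was highest for Cidea and Pnpla2.

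**Figure D4:**
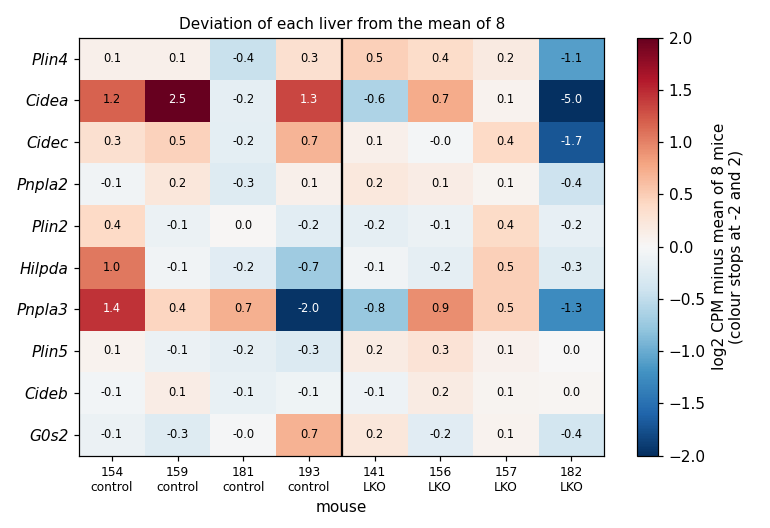
Deviation of each mouse from the mean of the 8 livers, in log2 CPM, for each droplet and lipolysis gene, with red above and blue below the mean and the number in each cell giving the deviation. The column of mouse 182 is blue for Plin4, Cidea, Cidec and Pnpla3 but near white for Plin2, Plin5 and Cideb.

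Cell type markers also differed in mouse 182 and, for some lists, in mouse 181. In mouse 182 the summed level of the 6 hepatocyte markers, led by albumin, was the highest of the 8 livers at 107169 CPM. The ranges of that sum were 72512 to 92445 CPM in control and 80346 to 107169 CPM in Mc1r LKO mice. Mouse 181, at 84985 CPM, lay below mice 159 (92445) and 141 (85264). The sum of the 5 lipid-associated macrophage markers was lowest in mouse 182 at 58.4 CPM, and mouse 181 followed at 91.3 CPM. Trem2 (0.358 CPM), Gpnmb (0.255 CPM) and Spp1 (16.8 CPM) were lowest in mouse 182. Cd9 and Lpl were not, at 18.5 and 22.4 CPM against 18.1 and 21.8 CPM in mouse 181. Spp1 was the largest part of the sum in every mouse but 182, from 49.1 CPM in mouse 181 to 239 CPM in mouse 141. The macrophage sum ranged from 91.3 to 237 CPM in control and from 58.4 to 324 CPM in Mc1r LKO mice. Adipocyte markers ranged from 2275 to 3945 and from 2468 to 4781 CPM, nearly all of it Car3, which hepatocytes also express. Lep was at 0 in every mouse, and Adipoq, Plin1 and Retn were at most 0.353, 0.278 and 0.252 CPM. Cfd, the remaining gene of that list, lay between 7.47 and 39.4 CPM. The 6 stellate cell markers summed to 301 to 484 CPM in control and 307 to 451 CPM in Mc1r LKO mice, and the lowest sums were those of mice 181 (301) and 182 (307). Col1a1, a collagen of activated stellate cells, was 13.8 and 13.5 CPM in these mice and 27.1 to 58.2 CPM in the others. Lrat and Dcn were also lowest in mice 181 and 182, but the remaining stellate markers did not set both apart. Reln was lowest in mouse 159 (33.4 CPM), and Des was lower in mouse 157 (5.33 CPM) than in mouse 182 (5.47 CPM). Ecm1 was 115 CPM in mouse 182 and 116 CPM in mouse 157. The 5 Kupffer cell markers summed to 214 to 485 and 151 to 313 CPM, with mouse 182 the lowest of all 8. The 5 skeletal muscle markers summed to 0.777 to 1.38 and 0.65 to 1.31 CPM, with Acta1 and Myh4 at 0 in every mouse. In these lists 0 genes passed the unadjusted threshold between genotypes. The part of these shifts in the low values of mice 181 and 182 was not tested.

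Pairs of members were compared over the 8 mice by Pearson's r of log2 CPM, which gave 34 positive values among 45 pairs. After adjustment over the 45 pairs, 0 passed 0.05 by Pearson's r or Spearman's rho, and 7 pairs had an unadjusted permutation p of r under 0.05. Cidea and Cidec had an r of 0.93 (exact permutation p = 0.00905, adjusted p = 0.136) and a rho of 0.81 (exact permutation p = 0.0218, adjusted p = 0.49). Without mice 159 and 182, the farthest from the median of Cidea, r was 0.58. Leaving out the extreme mice also narrows the range, so this fall does not tell how far the relation rests on them. Plin4 and Pnpla2 had an r of 0.92 (exact permutation p = 0.00275, adjusted p = 0.124) and a rho of 0.76 (exact permutation p = 0.0368, adjusted p = 0.551), with r at 0.48 without mice 181 and 182. Plin2 and Hilpda had an r of 0.89 (exact permutation p = 0.0064, adjusted p = 0.136) and a rho of 0.69 (exact permutation p = 0.0694, adjusted p = 0.756). That r was 0.35 without mice 154 and 157 and 0.90 without mice 181 and 182. Plin4 and Cidec had an r of 0.86 (exact permutation p = 0.0265, adjusted p = 0.233) and a rho of 0.40 (exact permutation p = 0.327, adjusted p = 0.9), and r turned to -0.47 without mice 181 and 182. With genotype means removed, r was 0.92, 0.92 and 0.89 for Cidea with Cidec, Plin4 with Pnpla2 and Plin2 with Hilpda, and 0 pairs passed after adjustment. Neither genotype has the 6 mice that a correlation within it would need.

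**Figure D5:**
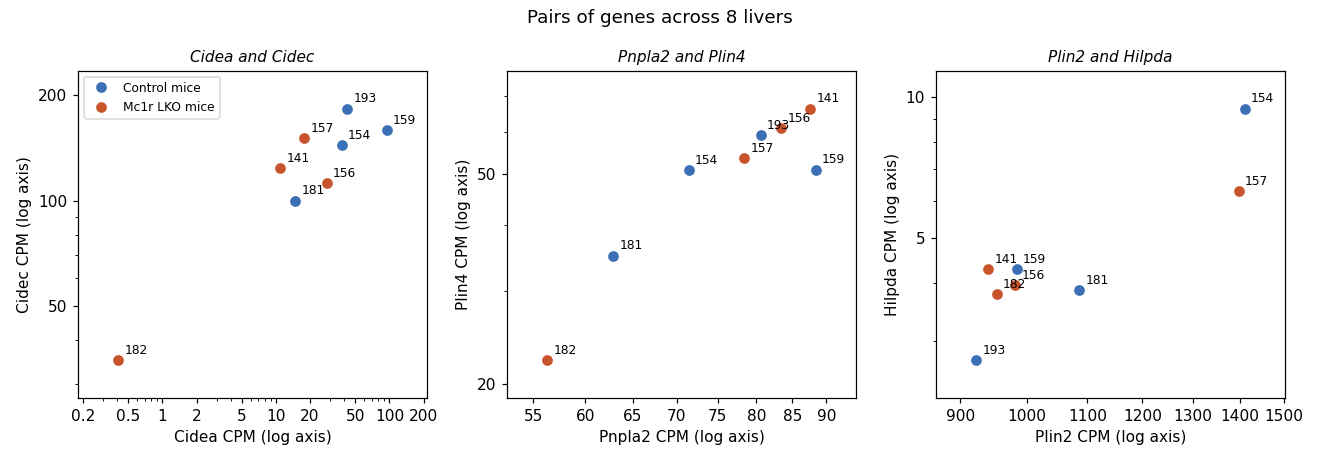
CPM of Cidec against Cidea, Plin4 against Pnpla2 and Hilpda against Plin2 in 8 livers, on log axes, each point labelled with its mouse. In the left panel mouse 182 lies far below the other livers, in the middle panel mice 182 and 181 are the lowest, and in the right panel mice 154 and 157 lie far above the rest.

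The genes whose log2 CPM followed that of Plin2 most closely over the 8 livers were Mapkapk2 (r = 0.959), Igsf11 (0.945), Ppp2r5c (0.931), Wnt5a (0.930) and Rnf144a (0.928). For Cidec they were 5033406O09Rik (r = 0.995), Slc43a2 (0.982), Arl10 (0.980), Clip2 (0.980) and Rab31 (0.979). Each of these 5 followers of Cidec was lowest in mouse 182, and without that mouse r was between 0.848 and 0.965. These values are the highest among the 13400 genes and carry no test.

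Of 66 other genes of the pathway, 65 were tested, and 6 passed the unadjusted threshold, all of them higher in Mc1r LKO mice, against 2.64% of all genes. None passed the adjusted threshold in edgeR's quasi-likelihood test, and 29 had a higher and 36 a lower mean, with a median log2 fold change of -0.02. DESeq2 called Acot1 and Angptl4 after adjustment, the edgeR likelihood ratio test called Angptl4, and limma-voom called 0. Among the 13 other PPAR target genes tested, 4 were higher and 9 lower, and the median was -0.02. Against 5.31% of all genes tested, 3 passed the unadjusted threshold. These were Angptl4, a secreted inhibitor of lipoprotein lipase, Acot1, a cytosolic acyl-CoA thioesterase, and Cyp4a14, a fatty acid hydroxylase. Angptl4 had 126, 94.8, 88.8 and 129 CPM in control mice 154, 159, 181 and 193 and 170.1, 172, 184 and 173 CPM in Mc1r LKO mice 141, 156, 157 and 182, with no overlap. Its log2 fold change was 0.67 (SE 0.13, adjusted p = 0.734). Acot1 had 15.8 ± 2.80 CPM in control and 24.0 ± 1.98 CPM in Mc1r LKO mice, without overlap (0.60, adjusted p = 0.734). Of all genes tested, 4.16% had groups that did not overlap. Cyp4a14 went from 323 ± 179.7 to 595 ± 187 CPM with overlap (0.88, adjusted p = 0.734), and its unadjusted call was lost under DESeq2, under robust fitting and on leaving out any of mice 159, 181, 193, 141, 156 and 157, at 0.69 to 0.88 on the log2 scale.

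Among 14 transcription factors of droplet genes, 8 were higher and 6 lower, and the median was 0.00. Of these, 2 passed the unadjusted threshold, against 5.31% of all genes tested, and 2 had groups that did not overlap, against 4.16%. Foxo1, which drives transcription of Pnpla2 in fasting, was 33.2 ± 3.02 CPM in control and 45.5 ± 7.19 CPM in Mc1r LKO mice, with no overlap (0.45, adjusted p = 0.734). Without Mc1r LKO mouse 182 its log2 fold change was 0.34. Cebpb, a bZIP factor of adipogenic and inflammatory programs, was 84.9 ± 21.8 and 129.9 ± 31.9 CPM, also with no overlap (0.61, adjusted p = 0.734), and did not pass without Mc1r LKO mouse 156 (0.46). Pparg, the receptor that drives Cidea and Cidec in fatty liver, had 27.9 ± 4.00 and 24.8 ± 6.18 CPM (-0.17, adjusted p = 0.907). Ppara, the fasting receptor of hepatocytes, had 99.1 ± 27.9 and 82.4 ± 6.78 CPM (-0.27, adjusted p = 0.856), and -0.44 without control mouse 159, where it passed the unadjusted threshold.

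Of 14 genes of droplet formation and triglyceride synthesis, 8 were higher and 6 lower with a median of 0.01. Against 5.31% of all genes tested, 1 passed the unadjusted threshold. This was Lpin1, a phosphatidate phosphatase and nuclear coactivator, at 164, 106, 169 and 97.9 CPM in control mice 154, 159, 181 and 193. Mc1r LKO mice 141, 156, 157 and 182 had 258, 361, 166 and 209 CPM, and only mouse 157 fell within the control range. The log2 fold change of Lpin1 was 0.89 (SE 0.25, adjusted p = 0.734). Dgat2, which makes triglyceride for droplets, had 417 ± 72.7 and 464 ± 45.4 CPM (0.15), and Gpat3, an acyltransferase of the same route, had 11.1 ± 2.21 and 12.5 ± 3.94 CPM (0.17). The value of Gpat3 lay between 0.03 without mouse 157 and 0.38 without mouse 182, and was 0.04 without mouse 181. It passed the unadjusted threshold without mouse 182 and, with all mice, in the fit with 1 surrogate variable (0.30).

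The 13 other lipases and cofactors, of which 4 were higher and 9 lower with a median of -0.07, held 0 genes past the unadjusted threshold. Abhd5, the activator of Pnpla2, had 42 ± 5.86 CPM in control and 40.4 ± 4.07 CPM in Mc1r LKO mice (-0.05, and 0.01 without control mouse 154). Lipe, hormone-sensitive lipase, had 17.8 ± 6.65 and 13.3 ± 3.11 CPM (-0.42, adjusted p = 0.84). Its difference was -0.25 without mouse 159, -0.26 without mouse 182 and -0.27 without mouse 193, and it passed the unadjusted threshold without mouse 181 (-0.61) and without both mice 181 and 182 (-0.45). Mgll, which cleaves monoglyceride at the end of lipolysis, had 445 ± 25.1 and 393 ± 38.1 CPM (-0.18, adjusted p = 0.785). Of the 12 other droplet coat and resident proteins, 11 were tested, 5 were higher and 6 lower, the median was -0.01 and 0 passed the unadjusted threshold. Plin3, the ubiquitous perilipin, had 79.4 ± 10.7 and 83.6 ± 17.5 CPM (0.07, and -0.04 without Mc1r LKO mouse 157). Hsd17b13, a hepatocyte droplet protein, had 616 ± 89.2 and 628 ± 127 CPM, and its log2 fold change of 0.03 turned sign under library size scaling alone (-0.01) and without mouse 159 (-0.00), 181 (-0.03), 156 (-0.01) or 157 (-0.05). Plin1, the perilipin of fat cells, was not kept by the filter, with at most 3 counts in any liver.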

How the data were processed

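Poly(A) RNA of whole liver from 4 control and 4 Mc1r LKO mice was sequenced with a stranded Illumina protocol. The authors trimmed the reads with Trim Galore 0.6.6, aligned them with STAR 2.7.6a and counted fragments per gene on the reverse strand with featureCounts (Subread 2.0.1). The headers of the deposited files name Ensembl GRCm38. The deposited values are whole-number counts per gene, not normalized, of which 55141 of 55487 genes received a symbol.

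Here filterByExpr kept 13400 genes (minimum count 10, minimum total 15), TMM scaling was applied, and the quasi-likelihood test of edgeR 4.0.16 (R 4.3.3) was fitted over all of them with Benjamini-Hochberg adjustment. The study's methods name this filter and scaling but not the test, and the paper calls its p cutoff a p-value in one place and an adjusted p-value in another, so both thresholds were applied. Mice were taken as separate animals from their labels. CPM values are TMM-scaled, log2 CPM used a prior count of 2, and log2 TPM a pseudocount of 0.1. A count of 0 allows up to 3 counts, for counting error only. Permutation tests were exact and two-sided, with 0.0286 as the smallest p of 4 against 4. Alternatives were DESeq2 1.42.0, limma-voom 3.58.1, the edgeR likelihood ratio test, robust fitting, other scalings, other filters, 1 surrogate variable (sva 3.50.0) and leaving out each mouse. The edgeR quasi-likelihood fit was tested on simulated counts. The permutation tests of a difference in means and of a correlation were tested on random values. The other steps had no such test.

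The members and gene lists were chosen with earlier results of these data known. All members were named, as were 10 fixed genes of the pathway lists, every list gene past the unadjusted threshold, and the 5 genes most like Plin2 and Cidec. Coordinates are those of the deposited files, and promoter sequences come from RefSeq.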

Additional observations from a re-analysis of the deposited data

Results flagged for a closer look

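In 6 of 60 groups of 4 mice that were checked, the highest or lowest mouse stood apart from the rest by Dixon's criterion at 95%, where chance gives about 3. Plin2 was 1397 CPM in Mc1r LKO mouse 157, and the next Mc1r LKO mouse had 982 CPM. Plin1 was 0.0808 CPM in Mc1r LKO mouse 157, from 2 counts, and 0 in the other 3 Mc1r LKO mice, where a count of 0 allows up to 0.14 to 0.211 CPM, so at this depth mouse 157 cannot be told apart from them and 5 groups remain. Pparg was 22.0 CPM in control mouse 193, and the nearest control had 29.2 CPM. Foxo1 was 56.3 CPM in Mc1r LKO mouse 182, and the nearest Mc1r LKO mouse had 42.8 CPM. Cebpb was 52.4 CPM in control mouse 193, and the nearest control had 93.0 CPM. The G0s2 to Pnpla2 ratio of TPM was 3.85 in Mc1r LKO mouse 156, and the nearest Mc1r LKO mouse had 5.01.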

How the results depend on the processing

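No member passed the adjusted threshold under any alternative. The 1 member past the unadjusted threshold became 2 under the edgeR likelihood ratio test, limma-voom or a filter of at least 1 count in any mouse, 3 with 1 surrogate variable, 0 under library size scaling alone, 3 without mice 181 and 182 (added after seeing the data) and 0 to 2 when each mouse was left out. Other pathway genes past the unadjusted threshold numbered 6, 11 with 1 surrogate variable and 5 to 10 with each mouse left out, the 10 arising without mouse 182, and past the adjusted threshold 0, 2 with DESeq2, 1 with the likelihood ratio test and 0 to 0 with each mouse left out. Neighbours in the order of levels that differed numbered 4 to 6 with a mouse left out. Pairs varying together after adjustment numbered 0, and 0 to 1 with a mouse left out, the 1 arising without mouse 159. The cause of these changes was not tested.

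For single genes, 236 of 249 values with all mice kept their direction and side of the threshold, 3 were no longer past it, 6 newly passed and 4 changed sign. With mice left out, these were 184 of 225, with 10, 9 and 22. Signs changed for Plin4 (-0.05) and Hilpda (0.07) under limma-voom and for Pnpla2 (-0.02) and Hsd17b13 (-0.01) under library size scaling, and without mice 181 and 182 for Plin2 (0.01), Abhd5 (0.01) and Pparg (0.02). With each mouse left out, log2 fold changes spanned -0.19 to 0.10 for Plin2, -0.10 to 0.31 for Plin4, 0.21 to 0.33 for Plin5, -2.27 to -1.16 for Cidea, 0.03 to 0.14 for Cideb, -0.70 to -0.18 for Cidec, -0.28 to 0.08 for G0s2, -0.07 to 0.14 for Pnpla2, -0.89 to 0.00 for Pnpla3 and -0.35 to 0.36 for Hilpda. They spanned -0.04 to 0.21 for Plin3, -0.05 to 0.17 for Hsd17b13, -0.14 to 0.01 for Abhd5, -0.27 to -0.02 for Pparg, -0.34 to 0.02 for the G0s2 to Pnpla2 ratio, -0.30 to 0.36 for the Hilpda to Pnpla2 ratio, -0.78 to -0.17 for the Cidec to Plin2 ratio and 0.22 to 0.46 for the Plin5 to Plin2 ratio, where the Plin5 to Plin2 ratio was 0.46 without mouse 157. Cidea could not be fitted with at least 10 counts in every mouse, which drops it. No paired analysis was made because the labels give no litter or cage by which mice of different genotype could be paired.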
